A study of Mus musculus with 37 samples.

Results

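The genes described here are 10 markers and transporters of astrocytes, namely Slc4a4, Aqp4, Gfap, Slc1a2, Slc1a3, Gja1, Aldoc, Aldh1l1, S100b and Glul, out of 18193 genes measured. They were chosen by name, as the probe sets annotated to these single symbols, and the brightest probe set of a gene, by its mean over the 37 arrays, stands for that gene. They had 36 probe sets in all, of which 31 passed the filter on low signal, and the other probe sets served as a check. Probe sets of a gene are numbered by brightness, 1 being the brightest. Probe set 1 of each of the 10 genes passed the filter in all 4 groups.

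The arrays measured RNA of the mouse temporal lobe on Affymetrix expression chips. The 4 groups were Wfs1 knockout mice of strain 129 (129 KO, n = 10), wild-type mice of strain 129 (129 WT, n = 9), Wfs1 knockout mice of strain C57 (C57 KO, n = 9) and wild-type C57 mice (C57 WT, n = 9). The labels name the strains C57 and 129SV, while the design text writes C57B6 and 129S6. Wfs1 encodes wolframin, a membrane protein of the endoplasmic reticulum. The labels used here give neither the targeted allele nor sex, age or litter, and they do not state that every array was a different animal, so the p-values cover only the variation among these samples, which may be technical. Tissue was dissected under a microscope, and RNA of all its cells was measured together.

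Astrocytes clear glutamate and potassium from the space around synapses, buffer its pH and water, and pass metabolites to neurons. Slc1a2 and Slc1a3 encode the glutamate transporters GLT-1 and GLAST, and Glul encodes glutamine synthetase, which turns the glutamate taken up into glutamine. Aqp4 is the water channel of the endfeet on blood vessels, Slc4a4 is the electrogenic sodium bicarbonate cotransporter, and Gja1 is a connexin of the gap junctions that couple astrocytes. Aldoc is a glycolytic aldolase, Aldh1l1 a folate enzyme, Gfap an intermediate filament protein that increases in reactive astrocytes, and S100b a calcium-binding protein found in astrocytes and also in some oligodendrocyte lineage cells. In such bulk tissue, fewer astrocytes and less RNA per astrocyte cannot be told apart.

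Promoter sequence is shown for the 3 genes that passed the test threshold between the strains with genotypes averaged, from the RefSeq promoter table on GRCm38.p6. The strains' own sequences were not compared. The table held 9 of the 10 genes, in 11 windows, and Aqp4 is not shown. Each line gives the 250 bases before a start site, 5′ to 3′, and Slc4a4 has a pair of start sites. Capitals mark TTGGC or its reverse complement GCCAA, the core of the sites that nuclear factor I proteins bind, which take part in astrocyte differentiation.
Slc4a4, first start, chr5:88887010-88887259, plus strand: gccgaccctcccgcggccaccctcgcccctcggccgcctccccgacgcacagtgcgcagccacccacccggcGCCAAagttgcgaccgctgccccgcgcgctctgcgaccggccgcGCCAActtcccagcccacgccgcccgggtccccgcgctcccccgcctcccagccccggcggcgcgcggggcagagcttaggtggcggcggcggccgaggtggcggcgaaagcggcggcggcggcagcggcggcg
Slc4a4, second start, chr5:89027716-89027965, plus strand: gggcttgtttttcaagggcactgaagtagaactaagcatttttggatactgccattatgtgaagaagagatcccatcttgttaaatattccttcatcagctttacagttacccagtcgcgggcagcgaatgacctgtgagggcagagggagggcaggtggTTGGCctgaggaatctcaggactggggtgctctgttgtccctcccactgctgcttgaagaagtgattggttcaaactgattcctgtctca
S100b, chr10:76253586-76253835, plus strand: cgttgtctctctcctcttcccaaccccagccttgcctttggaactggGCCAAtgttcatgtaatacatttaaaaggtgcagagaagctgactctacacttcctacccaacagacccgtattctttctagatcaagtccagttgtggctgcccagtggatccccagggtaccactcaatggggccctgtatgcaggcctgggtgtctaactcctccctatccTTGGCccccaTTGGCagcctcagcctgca
Gfap, chr11:102897201-102897450, minus strand: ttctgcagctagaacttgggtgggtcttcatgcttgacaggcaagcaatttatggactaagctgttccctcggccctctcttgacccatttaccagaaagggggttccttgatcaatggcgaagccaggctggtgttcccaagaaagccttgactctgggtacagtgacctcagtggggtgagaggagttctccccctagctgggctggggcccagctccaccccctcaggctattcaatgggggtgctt
The first Slc4a4 window is rich in G and C (82%), against 48.8% in the second. These letters occurred 2 times in the first Slc4a4 window, 1 time in the second and 3 times in the S100b window, and they are not in the Gfap window. Over the members they were present in 6 of 11 windows (54.5%), against 41.5% of all 32851 windows of the same length. A match describes the letters only.

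Signals are log2 values as deposited, so a difference of 1 is a doubling. Differences were tested with limma over 13078 genes and called at a Benjamini-Hochberg adjusted p under 0.05. Levels of different genes are not set against each other, because each probe set has its own brightness. Wfs1 itself averaged 3.11 ± 0.28 in 129 KO and 9.33 ± 0.12 in 129 WT, and 3.03 ± 0.26 in C57 KO and 9.32 ± 0.17 in C57 WT (SD), as the labels say. The number of arrays limits the precision. The actin controls, whose 3′ minus 5′ signal grows as RNA degrades, had medians from 1.19 to 1.25 in the 4 groups, and 129 WT array 73 stood apart at 2.76. Within each group, arrays with lower and higher sample numbers form sets of 19 and 18 arrays. The labels do not say what the numbers stand for.

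None of the 10 astrocyte genes passed the threshold for a difference between KO and WT in either strain. In C57 the differences KO minus WT lay between -0.07 (Aqp4) and 0.13 (Aldh1l1), and in 129 between -0.10 (S100b) and 0.08 (Gfap). The 95% confidence intervals of all 10 genes lay between -0.24 and 0.29 in C57 and between -0.24 and 0.27 in 129. None of the 10 was called in C57, where 0.107% of all genes were called, and none in 129, where 0.00765% were. With the strains averaged, 0 of 10 were called (0.0229% of all genes), and 0 of 10 for the difference between the effects in the strains (0.0153%). At an unadjusted p under 0.05 the counts were 1 of 10 in C57 (833 of 13078 genes), 0 in 129 (279 genes), 0 in the strain average (647 genes) and 2 for the difference between the effects (437 genes).

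**Figure D1:**
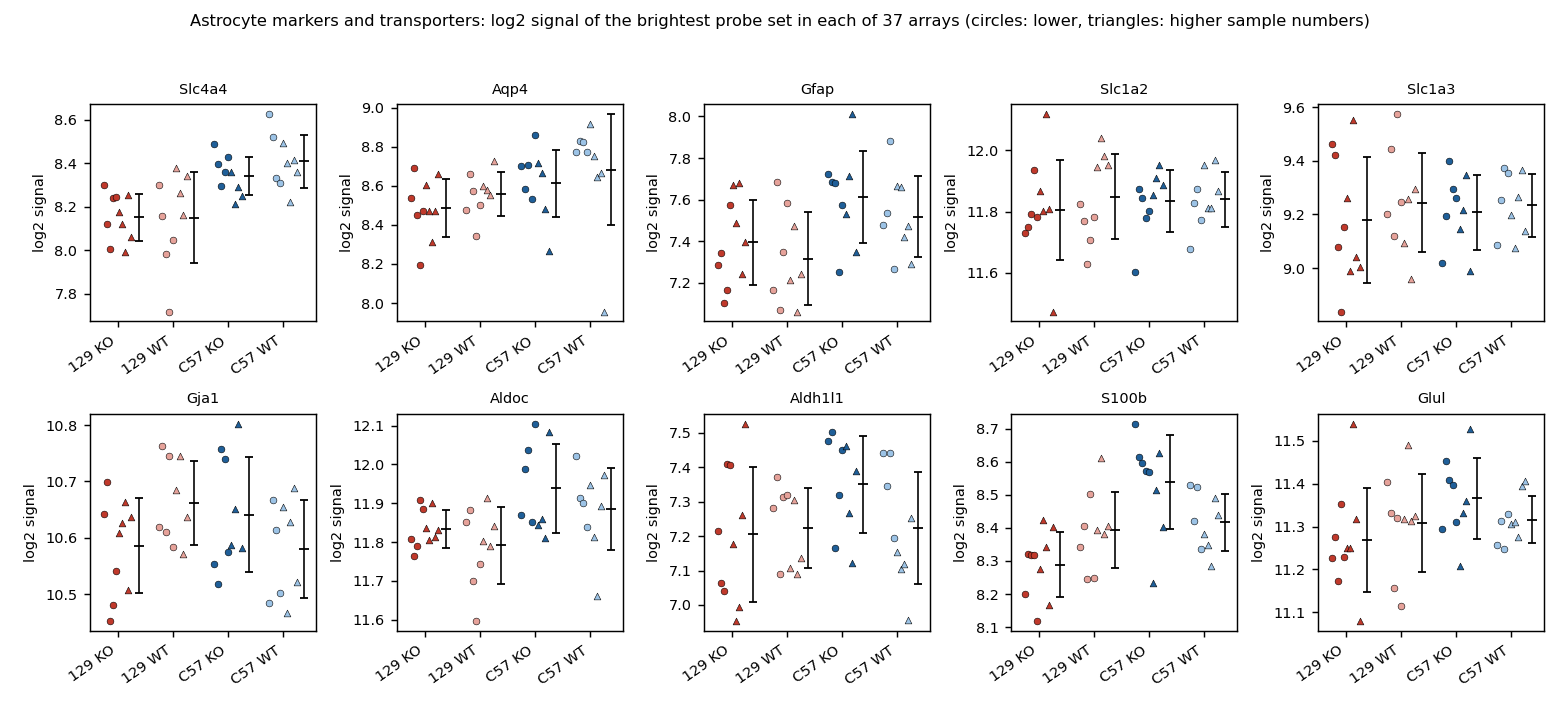
Log2 signal (vertical axis) of the brightest probe set of each of the 10 genes in each array of the 4 groups (horizontal axis), with circles for lower and triangles for higher sample numbers and, beside the points, the mean with SD. KO and WT arrays overlap in every panel. The means of Slc4a4, Aqp4, Gfap, Aldoc, S100b and Glul are lower in 129 than in C57 in both genotypes, by differing amounts. The S100b means are 8.29 in 129 KO and 8.54 in C57 KO, beside 8.39 in 129 WT and 8.42 in C57 WT.

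The glutamate cycle genes differed little between KO and WT. Slc1a2 averaged 11.81 ± 0.16 in 129 KO and 11.85 ± 0.14 in 129 WT, and 11.83 ± 0.10 in C57 KO and 11.84 ± 0.09 in C57 WT. Slc1a3 averaged 9.18 ± 0.24 in 129 KO and 9.24 ± 0.18 in 129 WT, and 9.21 ± 0.14 in C57 KO and 9.23 ± 0.12 in C57 WT. All 8 group means of these transporters differed from their counterparts by less than their SD. Glul averaged 11.27 ± 0.12 in 129 KO and 11.31 ± 0.11 in 129 WT, and 11.37 ± 0.09 in C57 KO and 11.32 ± 0.06 in C57 WT, with intervals of the KO minus WT difference from -0.14 to 0.06 in 129 and from -0.05 to 0.15 in C57.

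The endfoot and coupling genes were likewise close. Aqp4 averaged 8.49 ± 0.15 in 129 KO and 8.56 ± 0.11 in 129 WT, and 8.61 ± 0.17 in C57 KO and 8.68 ± 0.28 in C57 WT. Gja1 averaged 10.59 ± 0.08 in 129 KO and 10.66 ± 0.07 in 129 WT, and 10.64 ± 0.10 in C57 KO and 10.58 ± 0.09 in C57 WT. The Gja1 differences were of opposite sign, -0.08 (SE 0.05) in 129 and 0.06 (SE 0.05) in C57, and their difference, C57 minus 129, was 0.14 (SE 0.06, unadjusted p = 0.0415, adjusted p = 0.999 in limma). The brightest probe sets of Gja1 and of Slc1a3 are of a design whose probes may also match other sequences.

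For the metabolic enzymes, Aldoc averaged 11.83 ± 0.05 in 129 KO and 11.79 ± 0.10 in 129 WT, and 11.94 ± 0.11 in C57 KO and 11.88 ± 0.11 in C57 WT. Aldh1l1 averaged 7.21 ± 0.20 in 129 KO and 7.22 ± 0.12 in 129 WT, and 7.35 ± 0.14 in C57 KO and 7.22 ± 0.16 in C57 WT. Its difference in C57, 0.13 (SE 0.07), was the largest of the 10 there and missed the threshold (adjusted p = 0.847, limma).

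Among the brightest probe sets, S100b gave the smallest p for an effect of the knockout. In 129 KO its lowest, median and highest signals were 8.12, 8.32 and 8.42, against 8.25, 8.39 and 8.61 in 129 WT. In C57 KO they were 8.23, 8.57 and 8.71, against 8.29, 8.42 and 8.53 in C57 WT. Most C57 KO arrays were high, 6 of 9 above every C57 WT array, while 1 lay below all of them, and 8 of 10 129 KO arrays lay under the 129 WT median. KO minus WT was 0.12 in C57 (SE 0.06, unadjusted p = 0.037, adjusted p = 0.738) and -0.10 in 129 (SE 0.05, adjusted p = 1). The difference between the effects, C57 minus 129, was 0.22 (SE 0.08, unadjusted p = 0.0064), which did not pass over all genes (adjusted p = 0.999, limma).

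Between strains, 3 of the 10 genes were lower in 129 than in C57 when the genotypes were averaged, where 7.3% of all genes were called and 4.16% were called lower. They were Slc4a4, with a difference of -0.22 (SE 0.05, adjusted p = 0.000962), Gfap with -0.21 (SE 0.07, adjusted p = 0.0463) and S100b with -0.14 (SE 0.04, adjusted p = 0.0217, limma). None was higher. Of the 10 genes, 9 had a negative difference, against 46.7% of all genes, with a median of -0.09 against 0.00. Among KO mice alone S100b was called (1 of 10, background 3.06%), and among WT mice alone Slc4a4 (1 of 10, background 2.06%). All 10 genes had a negative difference among KO mice and 7 among WT mice, against 53.5% and 42.1% of all genes. Their medians were -0.12 and -0.02, against -0.01 and 0.02 over all genes.

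**Figure D2:**
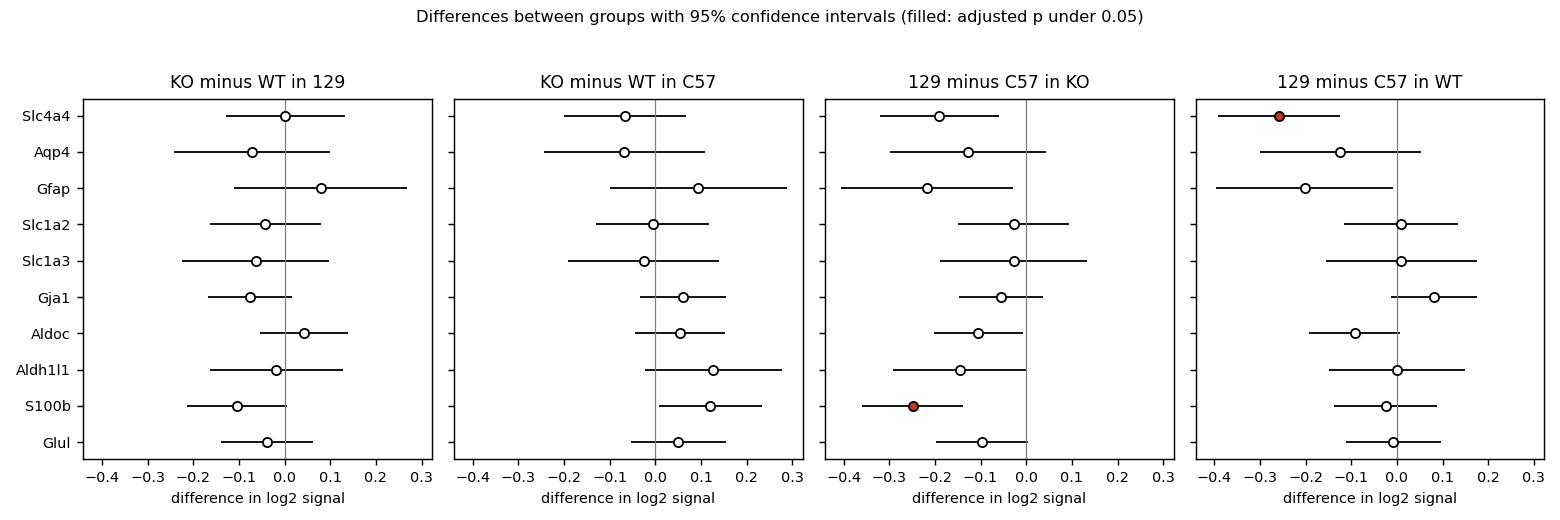
Difference in log2 signal (horizontal axis) of each gene (vertical axis) in 4 comparisons, with 95% confidence intervals and filled points where the adjusted p was under 0.05. No point is filled in the KO minus WT panels, and S100b among KO mice and Slc4a4 among WT mice are filled at -0.25 and -0.26.

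The bicarbonate cotransporter Slc4a4 was the member with the smallest adjusted p between strains. Its lowest, median and highest signals were 7.99, 8.15 and 8.30 in 129 KO, against 8.21, 8.36 and 8.49 in C57 KO. In 129 WT they were 7.72, 8.16 and 8.38, against 8.22, 8.40 and 8.62 in C57 WT. The groups overlapped, but all 10 of the 129 KO arrays lay under the C57 KO median and all 9 of the 129 WT arrays under the C57 WT median. The difference was -0.26 among WT mice (SE 0.07, adjusted p = 0.0259) and -0.19 among KO mice (SE 0.06, adjusted p = 0.111, limma). In order, the means were 8.15 in 129 WT and 8.15 in 129 KO, 8.34 in C57 KO and 8.41 in C57 WT, and no neighbours in that order differed past the threshold. The difference among WT mice lost its call without C57 WT array 25, 129 WT array 72, 73 or 74 (adjusted p up to 0.0602). It was -0.41 among arrays with lower and -0.09 among those with higher sample numbers, and the mean over genotypes was -0.31 (adjusted p = 0.00938) and -0.12 (adjusted p = 0.24). Slc4a4 signal correlated at -0.44 with the actin 3′ minus 5′ difference over the 37 arrays after group means were removed, and with that difference in the model the strain mean was -0.21 (adjusted p = 0.000617).

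For S100b the strain difference was called among KO mice, at -0.25 (SE 0.05, adjusted p = 0.00528, limma), against -0.02 (SE 0.06, adjusted p = 0.954) among WT mice. Using the signals given above, all 10 of the 129 KO arrays were under the C57 KO median and 3 were under every C57 KO array. The test of this contrast between genotypes is the difference between the knockout effects already given, which did not pass. Among arrays with lower sample numbers the KO difference was -0.36, and among those with higher numbers -0.12. The S100b mean over genotypes was -0.23 (adjusted p = 0.00619) and -0.03 (adjusted p = 0.86) in these sets. S100b probe set 2 gave -0.11 (adjusted p = 0.561), so the call rests on 1 of its 2 probe sets.

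Gfap ranged from 7.11 to 7.68 in 129 KO with a median of 7.37, against 7.25 to 8.01 in C57 KO with a median of 7.68. It ranged from 7.06 to 7.69 in 129 WT with a median of 7.24, against 7.26 to 7.88 in C57 WT with a median of 7.48. The 129 arrays were low in both genotypes, with 9 of 10 under the C57 median among KO mice and 7 of 9 among WT mice, and the groups overlapped. This call was close to the threshold: leaving out 1 array at a time ended it in 23 of 37 cases (adjusted p from 0.0217 to 0.0834). In the lower and higher sample numbers alone it was -0.23 (adjusted p = 0.177) and -0.20 (adjusted p = 0.264). The other Gfap probe sets gave -0.22 and -0.35 for the same difference and were not called. Gfap also correlated with the actin difference, at 0.45. With that difference in the model its strain mean was -0.22 (adjusted p = 0.0146, limma).

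The remaining 7 genes were not called between strains with the genotypes averaged. Aldoc had -0.10 (SE 0.03, adjusted p = 0.0757), Aqp4 -0.13 (SE 0.06, adjusted p = 0.277), Aldh1l1 -0.07 (SE 0.05, adjusted p = 0.543) and Glul -0.05 (SE 0.04, adjusted p = 0.524, limma). Slc1a2 and Slc1a3 were both at -0.01 and Gja1 at 0.01, with intervals that together span -0.12 to 0.11. For Aqp4 a single array decided the call: without C57 WT array 42, which read 7.96 against 8.64 in the next lowest array of its group, the difference was -0.17 (SE 0.05, adjusted p = 0.015). Aldoc was called without C57 KO array 10 (adjusted p = 0.0498) or without C57 WT array 37 (adjusted p = 0.026).

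The other probe sets of these genes gave strain differences that the brightest ones did not show in full. Probe sequences were not available here, and whether sequence differences between the strains under the probes have a part in these values was not tested. Over 31 tested probe sets, 4 were called lower and none higher in 129 with genotypes averaged, where 7.2% of 23321 probe sets were called and 4.05% were called lower. Among KO mice and among WT mice 2 of 31 were called each time, against 3.01% and 2.02% of probe sets. The 4 were 2 probe sets of Slc4a4, 1 of S100b and 1 of Slc1a2. Of the KO minus WT differences none was called in any of the 31 (0.0858% of probe sets in C57 and 0.00429% in 129).

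Slc4a4 probe set 3 had the largest difference between the WT groups among the called member probe sets. In 129 WT its lowest, median and highest signals were 5.98, 6.69 and 7.14, against 7.27, 7.53 and 8.01 in C57 WT. In 129 KO they were 6.13, 6.85 and 7.00, against 6.83, 7.10 and 7.72 in C57 KO. Every 129 WT array lay below every C57 WT array, a separation found in 0.416% of probe sets, whereas the KO groups overlapped. The differences were -0.98 among WT mice (SE 0.15, adjusted p = 5.17e-05) and -0.51 among KO mice (SE 0.14, adjusted p = 0.0396, limma). The WT call held in all 37 fits that left out 1 array, and the KO call in 29 of them. Among lower and higher sample numbers the WT difference was -1.04 and -0.80.

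On this probe set C57 KO lay between the strains. It averaged 7.20 ± 0.28 in C57 KO and 7.66 ± 0.29 in C57 WT, while 129 KO and 129 WT were at 6.69 ± 0.32 and 6.68 ± 0.41. The C57 difference KO minus WT was -0.46 (SE 0.15, unadjusted p = 0.00354), with 6 of 9 KO arrays below every WT array, and it was not called (adjusted p = 0.517, limma). It was -0.33 among lower and -0.50 among higher sample numbers. On probe set 1 of Slc4a4 the C57 difference KO minus WT was -0.07 (adjusted p = 0.943, limma). Slc4a4 and Wfs1 are both on chromosome 5, with 212 protein-coding genes between them. Cox18, a mitochondrial membrane insertase gene separated from Slc4a4 by 3 protein-coding genes, was called higher in C57 KO than in C57 WT, by 0.39 (SE 0.08, adjusted p = 0.0285), and higher in 129 WT than in C57 WT, by 0.59 (adjusted p = 1.3e-05). Cox18 was chosen after its values were seen, and the genes between it and Slc4a4 are not described here. Both Cox18 comparisons share the C57 WT arrays, and whether chromosomal position has a part in the Slc4a4 values was not tested.

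Slc4a4 probe sets 2 and 4 had no call in any comparison. Probe set 2 averaged 7.06 ± 0.34 in 129 KO and 7.17 ± 0.25 in 129 WT, against 7.25 ± 0.22 in C57 KO and 7.42 ± 0.24 in C57 WT. Its strain mean was -0.22 (SE 0.09, adjusted p = 0.128), against -0.22 on probe set 1. Probe set 4 gave a smaller strain mean, -0.09 (SE 0.10, adjusted p = 0.767, limma), with 0.01 among KO mice and -0.19 among WT mice. After group means were removed, probe set 2 had a correlation of -0.08 with probe set 1 over the 37 arrays, while probe sets 3 and 4 had 0.33 and 0.58.

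Slc1a2, the main glutamate transporter of the forebrain, had a probe set, number 2, that was lower in 129. It ranged from 5.81 to 7.65 in 129 KO with a median of 6.38, against 6.29 to 7.93 in C57 KO with a median of 7.59. It ranged from 5.99 to 6.83 in 129 WT with a median of 6.58, against 6.18 to 8.04 in C57 WT with a median of 7.20. The spread was wide and the groups overlapped, but 9 of 10 and 9 of 9 arrays of 129 lay under the C57 medians. The strain mean was -0.77 (SE 0.17, adjusted p = 0.00223, limma), called in all 37 fits that left out 1 array. The difference was -0.78 among KO mice (adjusted p = 0.0624) and -0.75 among WT mice (adjusted p = 0.11, limma), neither called. Leaving out 1 array gave a call in 6 of 37 fits among KO mice and 1 of 37 among WT mice. Probe set 1 of Slc1a2 gave a strain mean of -0.01 (SE 0.04, adjusted p = 0.957, limma). The remaining 2 tested Slc1a2 probe sets were not called. Whether sequence differences between the strains under its probes have a part in the values of probe set 2 was not tested.

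**Figure D3:**
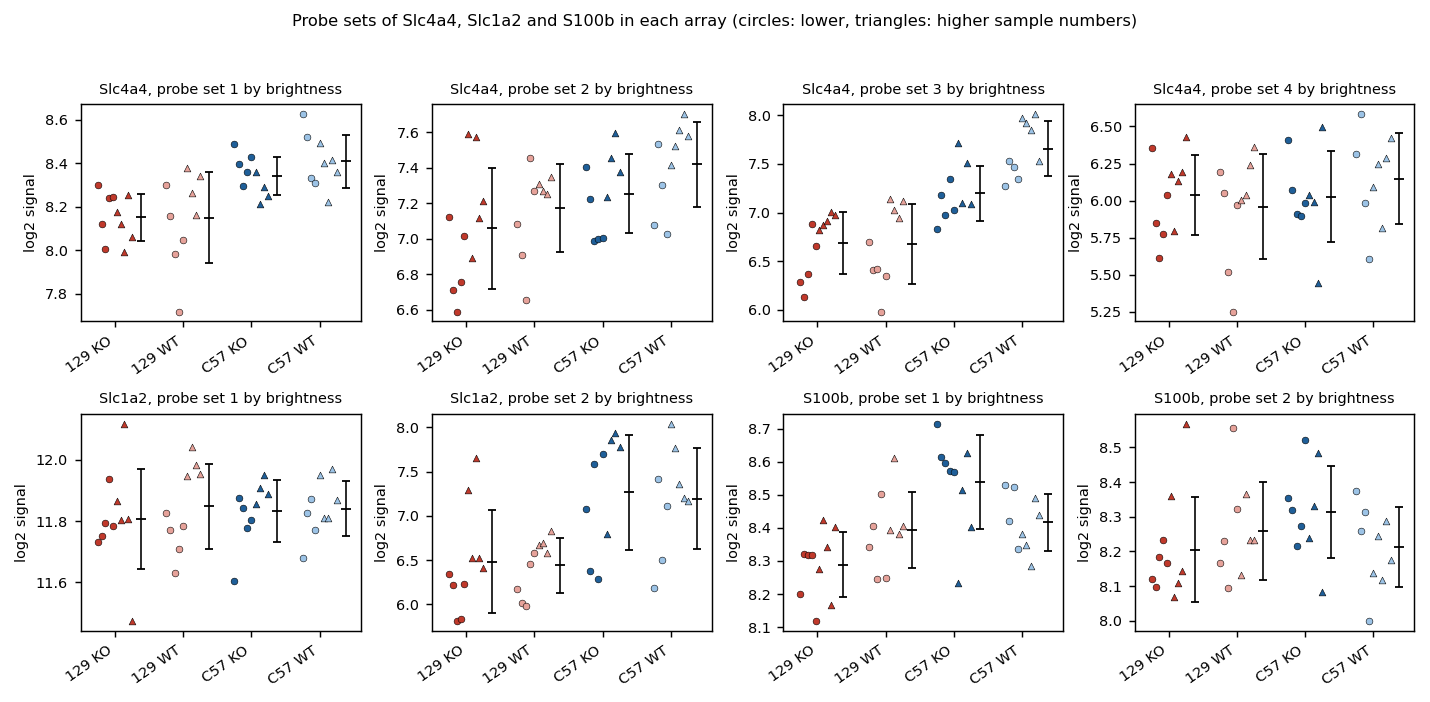
Log2 signal (vertical axis) of 4 Slc4a4, 2 Slc1a2 and 2 S100b probe sets in each array of the 4 groups (horizontal axis), with circles for lower and triangles for higher sample numbers and the mean with SD beside them. On Slc4a4 probe set 3 every 129 WT array lies below every C57 WT array, and on Slc1a2 probe set 2 the mean of the triangles lies above that of the circles in each group.

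Sample number moved with some of these probe sets. Arrays with higher sample numbers read 0.637 above those with lower numbers on probe set 2 of Slc1a2, 0.589 on probe set 5 of Gja1, 0.471 on probe set 3 of Slc4a4, 0.458 on probe set 2 of Aqp4 and 0.325 on probe set 2 of Slc4a4. These are descriptions, with differences between groups removed. On the brightest probe sets they lay between -0.115 (Aldh1l1) and 0.114 (Slc1a2). Since each group holds 4 or 5 arrays of each set, the strain difference of Slc1a2 probe set 2 could be taken within them: it was -0.92 and -0.71 among KO mice and -0.56 and -0.81 among WT mice, lower numbers first.

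**Figure D4:**
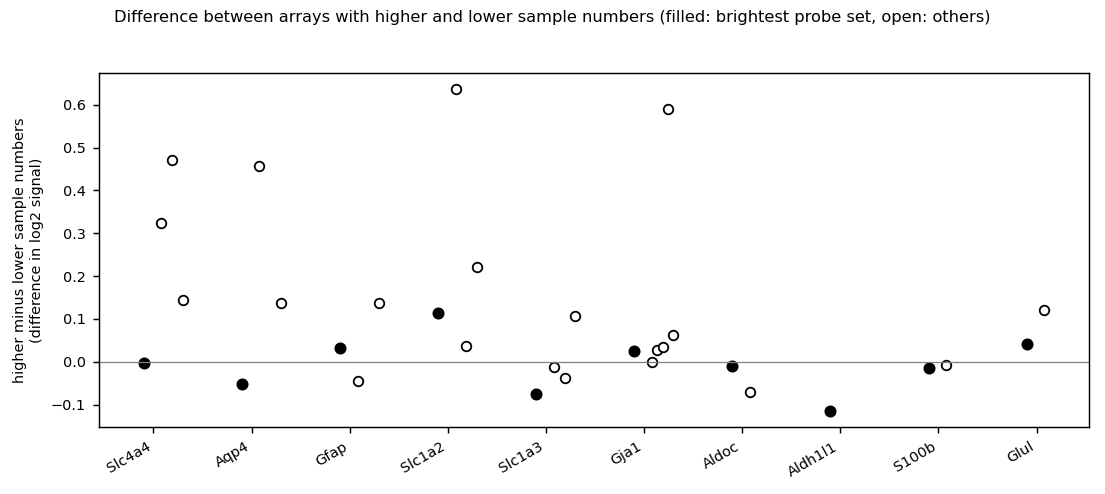
Difference in log2 signal between arrays with higher and lower sample numbers (vertical axis) for the 31 tested probe sets of the 10 genes (horizontal axis), filled for the brightest probe set of a gene. The filled points lie between -0.115 and 0.114, and the highest open point, of Slc1a2, is at 0.637.

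The 10 genes did not vary as a block from array to array. After group means were removed, the 45 pairs had a median Pearson correlation of 0.13 over the 37 arrays, from -0.43 to 0.67, with 32 positive and 13 negative. These are descriptions of arrays that share a normalization and differ in RNA quality. The 3 pairs above 0.5 were Slc1a2 with Glul (0.67), transporter and enzyme of the glutamate cycle, Slc1a3 with Gja1 (0.64), and Slc4a4 with Aldoc (0.52). The lowest were Aqp4 with Glul and Slc1a2 with Aldh1l1, both at -0.43. With the sample number sets removed as well, the 3 highest pairs were at 0.68, 0.70 and 0.45. Without 129 WT array 73, which had the largest actin difference, the same pairs were at 0.69, 0.63 and 0.42. Slc1a3 correlated at 0.61 with the actin difference, and the part of RNA quality in these pairs was not tested further.

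**Figure D5:**
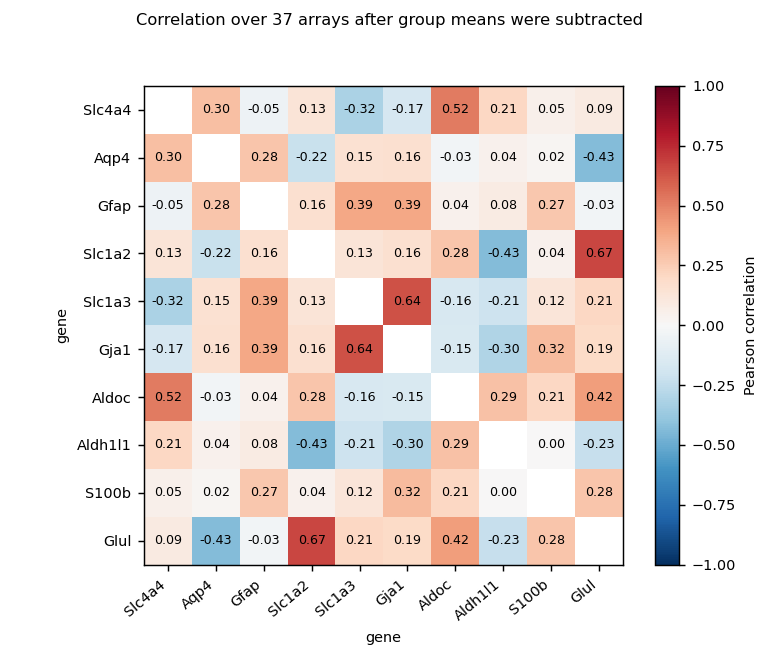
Pearson correlation between the brightest probe sets of the 10 genes (both axes) over 37 arrays after group means were subtracted, on a colour scale from -1 to 1. Slc1a2 with Glul (0.67) and Slc1a3 with Gja1 (0.64) are the strongest positive pairs.

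Agreement between probe sets of 1 gene also varied. Gfap probe sets 2 and 3 followed probe set 1 at r = 0.91 and 0.75, and those of Gja1 of the same design at 0.88, 0.86 and 0.77. The S100b pair reached 0.49, the Aldoc pair 0.32 and the Glul pair 0.26. Beside Slc4a4 probe set 2, 3 tested probe sets ran against the brightest of their gene, Slc1a3 probe set 4 at -0.42, Gja1 probe set 5 at -0.24 and Slc1a2 probe set 3 at -0.10. Outside the 10 genes, those with the highest mean correlation with them were Mfn1 (0.31), Sash1 (0.29), Pygb (0.28) and Hspa1a (0.27). Myo18a, Emx2, Rims4 and Hspa1b followed (0.26 each), all over 37 arrays. They were picked as the highest of the genes tested, without a background for such means. Correlations with single members varied, from -0.19 to 0.62 for Sash1 and from 0.03 to 0.51 for Mfn1. The members' own means with the other 9 lay between -0.06 (Aldh1l1) and 0.17 (Gfap).

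Other genes of the same pathways showed no call for the knockout either. This covers the 55 other astrocyte genes and the lists for glutamate, endfeet, pH, gap junctions, glycolysis, folate and reactive astrocytes, in C57 and 129. Over all genes 0.107% were called in C57 and 0.00765% in 129, so the lack of calls does not set these lists apart. The largest C57 differences that missed the threshold were Slc6a11, the GABA transporter GAT-3, at 0.45 (SE 0.15, adjusted p = 0.475), and Fabp7, a fatty acid binding protein of radial glia and astrocytes, at 0.28 (SE 0.16, adjusted p = 0.84, limma). In 129 they were Synm, an intermediate filament protein, at 0.30 (SE 0.19, adjusted p = 1) and Dio2, a thyroid hormone deiodinase, at -0.24 (SE 0.09, adjusted p = 1).

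Between strains, with genotypes averaged, 11 of the 55 other astrocyte genes were lower and 1 was higher in 129, against 4.16% lower and 7.3% called over all genes. Of the 55, 41 had a negative difference, against 46.7% of all genes, with a median of -0.08 against 0.00. The lower ones with the largest changes were Aldh1a1, a retinaldehyde dehydrogenase, by -0.42 (SE 0.09, adjusted p = 0.00189), Id2, a transcriptional inhibitor, by -0.31 (adjusted p = 0.000569), F3, tissue factor, by -0.25 (adjusted p = 0.0281) and Sparc, a matrix protein, by -0.25 (adjusted p = 0.00425, limma). The pathway lists held few calls, and their counts stand against the same 4.16% called lower over all genes. Glutamate genes had 2 lower of 15, with 7 positive and 8 negative differences and a median of -0.01. The lower ones were Slc6a11 by -0.32 (adjusted p = 0.043) and the glutamine transporter Slc38a5 by -0.33 (adjusted p = 0.00845, limma). Of the single genotypes, Slc6a11 was called only among KO mice (-0.51, adjusted p = 0.0337), with means of 5.15 in 129 WT and 5.28 in C57 WT. Slc38a5 was called only among WT mice (-0.47, adjusted p = 0.0296, limma). Single genes were lower in the endfoot list (the potassium channel Kcnk2, -0.18, of 15), the pH list (Car8, a carbonic anhydrase-related protein, -0.35, of 14) and the gap junction list (the connexin Gjb6, -0.26, of 9). Pygm and Pygb, both glycogen phosphorylases, were the 2 lower of 23 glycolysis and glycogen genes (-0.29 and -0.15), and none of 14 folate genes was called. The medians of the endfoot, pH, gap junction, glycolysis and folate lists lay between -0.02 and 0.03.

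The reactive astrocyte list went both ways. Serpina3n, a serine protease inhibitor, averaged 8.31 in 129 KO and 8.22 in 129 WT, against 6.69 in C57 KO and 6.83 in C57 WT, a strain mean of 1.5 (SE 0.28, adjusted p = 0.000265). The MHC class I genes H2-K1 (-0.31, adjusted p = 0.00139) and H2-D1 (-0.22, adjusted p = 0.0209, limma) were lower in 129. Of 24 tested genes these 3 were called, 1 higher and 2 lower, against 3.14% higher and 4.16% lower over all genes. Of the 24, 15 had a negative difference, against 46.7% of all genes, with a median of -0.05 against 0.00.

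Markers of some other cells were also lower in 129, with genotypes averaged; the counts stand against 7.3% of all genes called and 4.16% called lower, and the signs against 46.7% negative. Of 9 oligodendrocyte markers 3 were lower in 129 (Mobp -0.41, Ermn -0.36 and Mbp -0.14, all genes of myelinating cells), all 9 had a negative difference, and the median was -0.16. Their mean level per array ranged from 7.98 to 8.54 in 129 KO and 8.10 to 8.52 in 129 WT, against 7.95 to 8.90 in C57 KO and 8.24 to 8.94 in C57 WT. Of 8 microglia markers 3 were lower (C1qb -0.31, C1qc -0.26 and C1qa -0.24, subunits of 1 complement protein), while 3 of the 8 had a positive difference and the median was -0.05. Their mean level per array ranged from 6.74 to 7.25 in 129 KO and 6.59 to 7.07 in 129 WT, against 6.83 to 7.15 in C57 KO and 6.81 to 7.29 in C57 WT. Nefl was the 1 called of 9 neuron markers (-0.11), of which 8 had a negative difference with a median of -0.03. Olig1 was the 1 called of 5 oligodendrocyte precursor markers (-0.13), of which 2 had a positive difference, with a median of -0.03. Among the other cell types, none of 7 endothelial, 5 meningeal or 6 striatal markers was called, with medians of -0.13, -0.15 and 0.09, and all measured markers of these cell types passed the filter on low signal. Of 7 choroid plexus and ependyma markers 3 passed the filter, of 2 blood markers 1, and none of these was called. Among KO mice alone, differences between strains were negative for 9 of 9 oligodendrocyte, 8 of 9 neuron and 7 of 7 endothelial markers. They were negative for 5 of 8 microglia, 3 of 5 meningeal and 3 of 5 oligodendrocyte precursor markers. For striatal markers the count was 1 of 6, for choroid plexus and ependyma 1 of 3 and for blood 0 of 1, against 53.5% of all genes. The part of all these cells in the differences of the astrocyte genes was not tested. For the knockout, the striatal markers had a median KO minus WT difference of -0.50 in C57 and -0.19 in 129. Meningeal markers had medians of -0.22 and -0.10, and oligodendrocyte markers of -0.14 and -0.05. The 3 tested choroid plexus and ependyma markers had -0.12 and -0.02. Medians of neuron, oligodendrocyte precursor, microglia and endothelial markers lay between -0.03 and 0.03. None of these markers was called, against 0.107% of all genes in C57 and 0.00765% in 129. The 10 astrocyte genes had medians of 0.05 and -0.04.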

How the data were processed

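RNA of mouse temporal lobe was measured on 37 Affymetrix arrays. The values the authors deposited are log2 probe set signals, already normalized between arrays; the submitters' processing notes name MAS5 and GCRMA with no role or version, and the values have the form GCRMA writes. They were used as deposited, with array medians from 4.30 to 4.36. Of 45037 probe sets other than controls, 34945 had 1 gene symbol in the platform annotation, 932 had several and 9160 had none; only the first were used. Symbols were checked through Entrez identifiers against the RefSeq gene table, where 204 of these probe sets had no entry.

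The probe set with the highest mean stood for its gene, which was tested when its mean reached the 40th percentile of probe set means (3.6) in at least 1 group, which left 13078 genes. limma 3.58.1 (R 4.3.3) fitted 1 mean per group to all 37 arrays, with p-values 2-sided and adjusted by Benjamini-Hochberg over all genes tested. Every probe set was fitted the same way (23321 tested). The fit was tested on simulated data in which 200 of 13078 genes were shifted. A shift of 0.25 was recovered in 28% of them for KO minus WT in C57, and in 71% for the strain mean. A shift of 0.5 was recovered in 93% and 99%. Figures used Python 3.11.15 and matplotlib 3.10.9. The members, the gene lists, the sample number sets and the tests were chosen with earlier results of these data known. All 10 members are named, and of each list the called genes with the largest change (up to 4), or otherwise up to 2 that missed the threshold. The named neighbour Cox18, and the probe sets numbered 2 and 3 that are described in detail, were chosen after their values were seen. List genes without a probe set of 1 symbol were not analysed here.

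Alternatives were array weights, a trended and robust eBayes, median centring or quantile normalization, testing without a filter or with one at the 60th percentile, fitting all probe sets, averaging the probe sets of each gene, a fit of only the groups compared, the sample number set as a block or each set alone, the actin difference or the first residual principal component as a covariate, and each array left out. The second brightest probe set, and leaving out the array with the largest actin difference together with the set as a block, were chosen after seeing the data.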

Additional observations from a re-analysis of the deposited data

Results flagged for a closer look

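Of 56 groups of arrays examined, over 14 probe sets, 3 held an array far from the others of its group; chance gives about 1 in 20, or 2.8. The brightest Aqp4 probe set read 7.96 in C57 WT array 42, and the next lowest array of that group read 8.64. Aqp4 probe set 2 by brightness read 5.47 in 129 WT array 73, and the next lowest read 7.65; the same array had the highest actin 3′ minus 5′ difference, 2.76, and the part of RNA quality in that reading was not tested. The brightest Slc1a2 probe set read 11.6 in C57 KO array 1, and the next lowest read 11.78.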

How the results depend on the processing

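Over 16 settings, 1113 values of the 10 genes were recomputed: 1088 kept their direction or stayed without a call, 18 lost a call, 7 gained one and none of the called ones reversed. Among these, 91 values without a call changed sign. The knockout counts stayed at 0 in every setting and in all 37 fits that left out 1 array. The count of genes called between strains among KO mice, 1, became 0 with the second brightest probe set and 0 in the higher sample numbers alone, and 2 without the array of largest actin difference with the set as a block. The count among WT mice, 1, became 0 with the second brightest probe set, 0 with only the groups compared, 0 in either sample number set alone, and 0 without the array of largest actin difference with the set as a block. The count over both genotypes, 3, became 1 with the second brightest probe set (Slc1a2) and 0 in the higher sample numbers alone. Fewer arrays enter the fits of a set alone; for the other changes the cause was not tested. Leaving out 1 array gave counts of 1 to 2 among KO mice (2 without 129 WT array 73), 0 to 1 among WT mice and 2 to 4 over both genotypes. Slc4a4 over both genotypes kept its call in all these (adjusted p from 0.000483 to 0.00199), as did S100b (0.00364 to 0.0401). Over both genotypes the S100b call was lost with the mean of its probe sets (adjusted p = 0.191), its second brightest probe set (0.852) and the higher sample numbers alone (0.86), and the Slc4a4 call with the second brightest probe set (0.127) and the higher numbers alone (0.24). The Gfap call was lost in 6 of 16 settings: no filter (adjusted p = 0.0559), every probe set (0.0514), the second brightest probe set (0.184), lower numbers alone (0.177), higher numbers alone (0.264), and without the array of largest actin difference with the set as a block (0.0509). The count over both genotypes was 2 with no filter, with every probe set and in the last of these, where Slc4a4 and S100b were called. With the mean of its probe sets Slc1a2 was called (-0.23, adjusted p = 0.00243). Aqp4 was called in the lower numbers alone (adjusted p = 0.0185), and Aldoc with trended and robust eBayes (0.0428), array weights (0.0241) and the principal component (0.0495). Array weights moved the number of all genes called among WT mice to 678, against 269. No paired analysis was possible because the sample numbers of the groups do not overlap. The number of arrays limits which differences can be detected.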
